A study of Mus musculus with 4 samples.

Results

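The enzymes of heme biosynthesis were followed in mouse Hoxb8 cells through 7 genes of the pathway: Alas1, Alad, Uros, Urod, Cpox, Ppox and Fech. They were chosen by name, as expressed enzymes of the pathway, and were found by symbol among the 52636 gene lines of the count table; all 7 were among the 11444 genes with enough counts to be tested. The cells were of a line named for the homeobox gene Hoxb8, which is widely used to immortalise myeloid progenitors. One group carried an empty vector (EV, n = 2 libraries) and the other expressed DNMT3A R882H (n = 2), a substitution in a de novo DNA methyltransferase that recurs in acute myeloid leukaemia. No other allele or treatment is given in the labels, and neither the vector's promoter nor whether the replicates are separate cultures is stated there, so a p-value here covers no more than the spread among these libraries, which may be technical. Dnmt3a had 264, 270, 254 and 239 counts, with the EV pair given first and then the R882H pair, each in order of replicate number, which checks no label, because endogenous and vector-borne transcripts cannot be told apart and a 3′ tag need not fall in a vector's insert. The series as a whole concerns inhibition of heme synthesis and copper-dependent death of leukaemia cells.

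Heme is an iron-containing porphyrin that serves respiratory cytochromes, peroxidases and oxygen carriers. Its synthesis starts in the mitochondrial matrix, where 5-aminolevulinate synthase joins glycine with succinyl-CoA, moves to the cytosol for the porphyrin-building steps, and returns to the mitochondrion, where ferrochelatase inserts iron. ALAS1, the form of the first enzyme found in most cells, is held down by heme itself, while ALAS2 serves developing red cells.

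Libraries were made with a 3′ tag protocol, in which a transcript gives a read near its poly(A) tail whatever its length, so levels scaled to library size (CPM, with trimmed-mean factors) can be set beside each other between genes. Libraries held between 5470330 and 5921985 counts, and 1 count was worth 0.167 to 0.183 CPM. Of 20 myeloid progenitor markers, 19 had counts in both groups and Ly6c2 had 0, 0, 6 and 6. Cd34 had 7026, 7472, 8048 and 7997 counts and Cd33 2530, 2974, 2810 and 2485 in that same order, which holds for all counts below. Defining red cell genes were nearly silent: of 21 erythroid markers in the table, 8 had no count in any library, among them the anion exchanger gene Slc4a1, the erythropoietin receptor gene Epor and the alpha-globin gene Hba-a1, and Alas2 had 1 count in all. The beta-globin genes Hbb-bt and Hbb-bs had 61, 47, 44 and 41 and 12, 12, 8 and 8 counts. Markers of other blood lineages differed between the groups: 10 of 12 tested ones were higher in R882H and 1, the platelet chemokine gene Pf4, was lower (edgeR adjusted p under 0.05). Of all tested genes, 19.3% were higher and 19.4% lower. In the same marker list, Cd3e, Cd3g, Cd8a, Ncr1, Siglech and Fcer1a were at 0 in every library. The summed level of that list was 1120 to 1324 CPM in EV and 1266 to 1314 CPM in R882H, sums that hold opposite differences, since Pf4 alone gave 939 ± 134 CPM in EV and 12.8 ± 3.20 CPM in R882H (SD, n = 2). Counts of 4 Y-linked genes summed to 2 and 4 in EV and 110 and 87 in R882H, beside Xist in every library, 1438 to 1463 counts in EV and 1509 to 1880 in R882H. The part of these differences in the results below was not tested. In such bulk samples fewer cells of a type and less RNA per cell cannot be told apart.

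Alad, Urod and Ppox were lower in the R882H cells, and no enzyme was higher. Alad, which joins 5-aminolevulinate molecules into porphobilinogen, stood at 37.7% of its EV level (95% interval 28.1% to 50.7%). Urod, which decarboxylates uroporphyrinogen, stood at 57.8% (46.3% to 72.3%), and Ppox, which oxidises protoporphyrinogen, at 68.2% (53.1% to 87.6%). The call of Ppox depended on single libraries and was lost in DESeq2, and its 3′ end overlaps another gene. The first enzyme, Alas1, and the last, Fech, were not called, nor were Uros and Cpox between them. Across the 11444 tested genes 38.8% were called in either direction, 19.4% as lower and 19.3% as higher in R882H (edgeR quasi-likelihood test, adjusted p under 0.05), so that 3 of 7 enzymes called, 42.9%, is near the background share, and the count does not set the pathway apart. All 7 log2 fold changes were below 0, with a median of −0.20, against a median of 0.01 over all tested genes, of which 49.0% were below 0. No enzyme was higher at an unadjusted p under 0.05 in edgeR, and none was called higher in DESeq2.

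**Figure D1:**
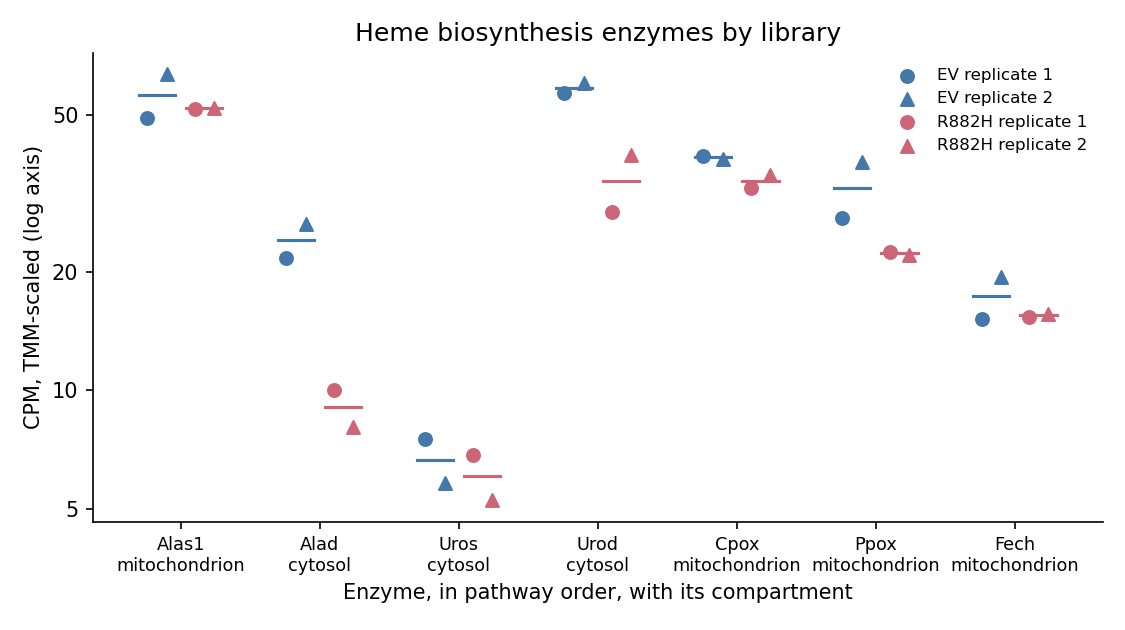
CPM of the 7 enzymes in each of the 4 libraries on a log axis, in pathway order, with the compartment of each enzyme; short lines are group means (n = 2). Both R882H libraries lie under both EV libraries for Alad, Urod, Cpox and Ppox, and the groups overlap for Alas1, Uros and Fech.

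The promoters of the called enzymes are shown beside that of Alas1, which was not called, to let their sequences be compared. They run from 250 bases before to 50 bases after an annotated start, 5′ to 3′ on the gene's strand, from RefSeq on GRCm38.p6; 6 of the 7 enzymes have an entry, with 9 starts in all. Capitals mark CACGTG (the E-box), AGATAA or its reverse TTATCT (the GATA box) and GCATGCG or its reverse CGCATGC (the core of the NRF1 site). Both strands were searched, and the forms of the NRF1 core overlap each other in Alas1.
Alas1, chr9:106247681-106247980, minus strand: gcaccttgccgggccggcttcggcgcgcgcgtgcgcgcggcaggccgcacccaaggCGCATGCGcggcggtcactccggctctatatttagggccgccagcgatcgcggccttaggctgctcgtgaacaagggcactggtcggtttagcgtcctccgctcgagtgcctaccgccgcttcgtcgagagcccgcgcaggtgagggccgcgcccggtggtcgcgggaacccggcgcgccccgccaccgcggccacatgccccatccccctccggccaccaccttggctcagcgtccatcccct
Alad, chr4:62519860-62520159, minus strand: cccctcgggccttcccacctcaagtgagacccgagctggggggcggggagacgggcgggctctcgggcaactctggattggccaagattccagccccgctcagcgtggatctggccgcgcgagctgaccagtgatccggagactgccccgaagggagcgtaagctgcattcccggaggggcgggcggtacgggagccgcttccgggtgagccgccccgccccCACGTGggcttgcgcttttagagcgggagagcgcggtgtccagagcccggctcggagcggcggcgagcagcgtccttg
Urod, chr4:116994364-116994663, minus strand: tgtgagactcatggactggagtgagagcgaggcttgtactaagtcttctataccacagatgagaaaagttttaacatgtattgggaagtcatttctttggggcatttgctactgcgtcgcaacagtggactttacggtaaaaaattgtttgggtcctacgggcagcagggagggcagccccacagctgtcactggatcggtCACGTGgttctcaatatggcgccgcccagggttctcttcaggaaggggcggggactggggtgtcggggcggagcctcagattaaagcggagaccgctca
Ppox, chr1:171281137-171281436, minus strand: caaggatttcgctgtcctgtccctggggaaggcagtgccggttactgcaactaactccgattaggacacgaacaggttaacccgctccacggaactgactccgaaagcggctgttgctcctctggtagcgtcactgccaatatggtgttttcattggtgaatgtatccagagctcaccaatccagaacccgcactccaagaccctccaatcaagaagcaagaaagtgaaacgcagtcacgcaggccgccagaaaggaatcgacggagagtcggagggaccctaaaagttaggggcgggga
The E-box, a motif bound by MYC, USF and TFE proteins, begins 28 bases before the start in this Alad promoter and 49 bases before it in Urod. It also occurs in the other Alad promoter and at the far end of one Uros promoter, and no E-box lies in the windows of Alas1, Cpox or Ppox. Of 32851 mouse promoters of this length 7.15% hold it, and 10.3% of the 10927 that belong to tested genes. The NRF1 core, a motif of genes for mitochondrial proteins, lies in the stretch that both windows of Alas1 share, against 3.58% of all promoters and 6.54% of those of tested genes. The GATA box occurs once among the 9, in Cpox, against 11.2% of all promoters and 6.29% of those of tested genes. CpG dinucleotides, the substrate of DNA methyltransferases, number 44 in the Alas1 window shown and 27 in its other window. The windows of Alad hold 33 and 19, that of Urod 14 and that of Ppox 17. Among the other enzymes not called, the windows of Uros hold 28 and 5 and that of Cpox 15. The median promoter of a tested gene holds 21. Which side of that median Alad or Uros falls on depends on the start taken. These matches describe letters, and methylation was not measured in these files. A link between these sequences and the levels was not tested.

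Alas1 (gene ENSMUSG00000032786, mm10 chromosome 9, 106233455 to 106248654), the rate-limiting entry point outside red cells, had 267, 359, 310 and 296 counts, or 49.0 and 63.4 CPM in EV and 51.9 and 52.0 CPM in R882H. The R882H libraries lay between the EV libraries, and the spread within EV exceeded the difference between groups. Its level in EV replicate 2 was 1.29 times that in replicate 1, with an exact 95% counting interval of 1.10 to 1.52. The log2 fold change was −0.11 with a 95% interval of −0.41 to 0.18 (edgeR adjusted p = 0.566), so a fall to 75.2% of the EV level or a rise to 113% remained within the interval. It turned to 0.079 without EV replicate 2.

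Alad (ENSMUSG00000028393, chromosome 4, 62509169 to 62519918) had 118 and 150 counts in EV and 60 and 46 in R882H, or 21.6, 26.5, 10.0 and 8.07 CPM. Both R882H libraries were well under both EV libraries, and replicates within a group differed by less than the groups. The log2 fold change was −1.41 ± 0.21 (SE, n = 2 per group, edgeR adjusted p = 1.69e-06), and 3.91% of all tested genes had a lower one. It was called under all 11 alternative settings, with log2 fold changes of −1.56 to −1.25.

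Uros, which closes the tetrapyrrole ring to uroporphyrinogen III (ENSMUSG00000030979, chromosome 7, 133686243 to 133710072), was the least abundant enzyme, with 41, 33, 41 and 30 counts and levels of 7.52, 5.82, 6.86 and 5.27 CPM. The groups overlapped. With so few counts the interval of its log2 fold change ran from −0.74 to 0.48 (edgeR adjusted p = 0.764), and the value found for Ppox lies within it, so a change of that size was not detectable at this depth. It became 0.056 when EV replicate 1 was left out, and likewise 0.056 when R882H replicate 2 was.

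Urod (ENSMUSG00000028684, chromosome 4, 116989965 to 116994413) had 309 and 342 counts in EV and 169 and 225 in R882H, or 56.7, 60.4, 28.3 and 39.5 CPM. Both R882H libraries were under both EV libraries, but they differed from each other by more than counting error, by a factor of 1.40 with an interval of 1.14 to 1.72. The log2 fold change was −0.79 ± 0.16 (edgeR adjusted p = 0.000141). Leaving out R882H replicate 1 gave −0.55 and leaving out R882H replicate 2 gave −1.03, and both fits called it. By group mean Urod was the most abundant of the 7 in EV and Alas1 in R882H, but in EV replicate 2 Alas1, at 63.4 CPM, was above Urod.

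Cpox, the coproporphyrinogen oxidase of the intermembrane space (ENSMUSG00000022742, chromosome 16, 58670292 to 58717636), had 215, 219, 195 and 201 counts, or 39.4, 38.7, 32.6 and 35.3 CPM. The R882H libraries were both lower, by little. The log2 fold change was −0.20 with an interval of −0.52 to 0.12 (edgeR adjusted p = 0.327), and it kept its sign, uncalled, under all 11 alternatives. With Alad, Urod and Ppox it made 4 of 7 enzymes with both R882H libraries under both EV libraries, a pattern shown by 33.9% of tested genes. No enzyme had both above, as 35.2% of tested genes did.

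Ppox (ENSMUSG00000062729, chromosome 1, 171275990 to 171281186), whose product is a flavoenzyme of the inner membrane, had 149 and 215 counts in EV and 134 and 126 in R882H, or 27.3, 37.9, 22.4 and 22.1 CPM. The R882H replicates were nearly equal and the EV replicates differed by a factor of 1.39 (counting interval 1.12 to 1.72). The log2 fold change was −0.55 ± 0.18 (edgeR adjusted p = 0.0133). The call depended on single libraries: leaving out EV replicate 2 gave −0.30 (adjusted p = 0.249), leaving out R882H replicate 1 gave an adjusted p of 0.0765 and leaving out R882H replicate 2 one of 0.0806. DESeq2 with every library gave 0.122. The last exon of Ppox meets that of B4galt3, a galactosyltransferase gene on the opposite strand, and they share 791 exon bases at the 3′ ends of both genes, where this protocol reads. B4galt3 had 101, 151, 80 and 83 counts and was called lower too (−0.69 ± 0.20 on the log2 scale, edgeR adjusted p = 0.00619). Ppox had 1.48, 1.42, 1.68 and 1.52 counts for each count of B4galt3, and B4galt3 too lost its call in DESeq2 and on leaving out EV replicate 2 or R882H replicate 1, so the genes moved together over the libraries, and their reads cannot be told apart without the strand setting, which is not given in the sources used here.

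Fech, the ferrochelatase that places iron in the ring (ENSMUSG00000024588, chromosome 18, 64452914 to 64490251), had 83, 110, 92 and 89 counts, or 15.2, 19.4, 15.4 and 15.6 CPM. The R882H libraries lay within the range of EV. The log2 fold change was −0.16 with an interval of −0.57 to 0.25 (edgeR adjusted p = 0.556), and 0.022 without EV replicate 2. Over the 7 enzymes, 5 were higher in EV replicate 2 than in EV replicate 1.

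**Figure D2:**
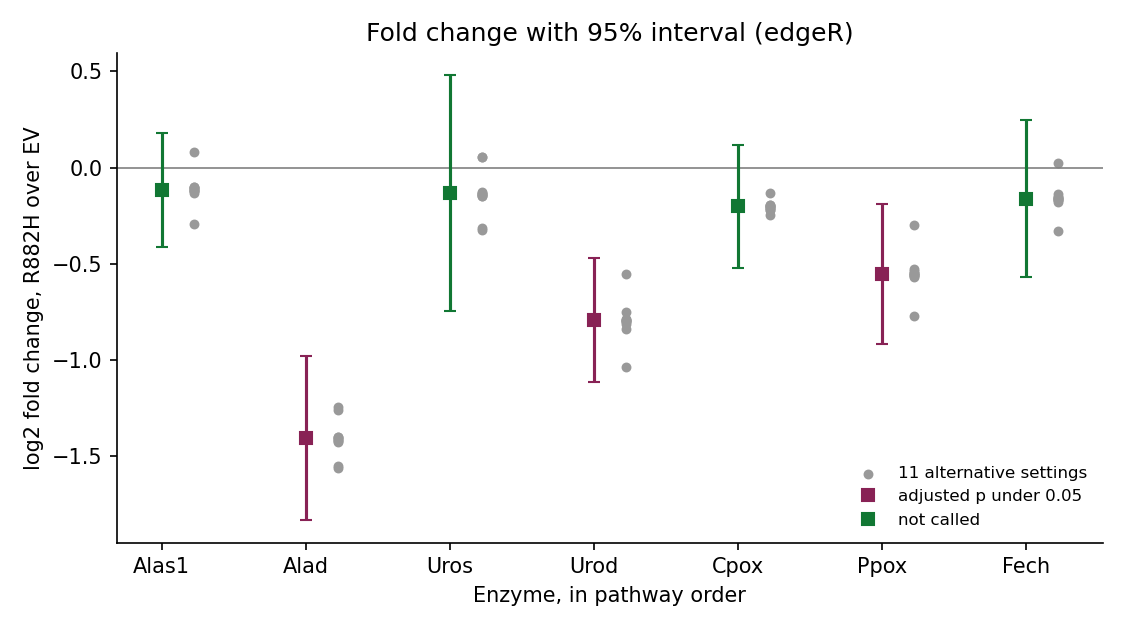
Log2 fold change of each enzyme, R882H over EV, with its 95% interval from the edgeR fit (squares), and the values under 11 alternative settings (grey points). Alad, Urod and Ppox have intervals below 0, and points above 0 occur for Alas1, Uros and Fech only.

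Counts of enzymes within a library can be compared without any scaling between libraries. Relative to Alas1, Alad had 0.442 and 0.418 counts per count in EV and 0.194 and 0.155 in R882H, and none of the exact 95% intervals of one group met those of the other: the lowest EV bound was 0.343 and the highest R882H bound 0.256. Urod had 1.16 and 0.953 in EV and 0.545 and 0.760 in R882H. Its EV replicate 2 interval, 0.819 to 1.11, met that of R882H replicate 2, 0.636 to 0.907. Ppox had 0.558 and 0.599 in EV and 0.432 and 0.426 in R882H, with intervals that met between groups. The ratio of Fech to Alas1, the last enzyme to the first, was 0.311, 0.306, 0.297 and 0.301, with its highest value 1.05 times its lowest, less than the counting intervals of each library. Ratios of Cpox, 0.805, 0.610, 0.629 and 0.679, and of Uros, 0.154, 0.0919, 0.132 and 0.101, overlapped between groups. Intervals on counts cover counting error only.

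**Figure D3:**
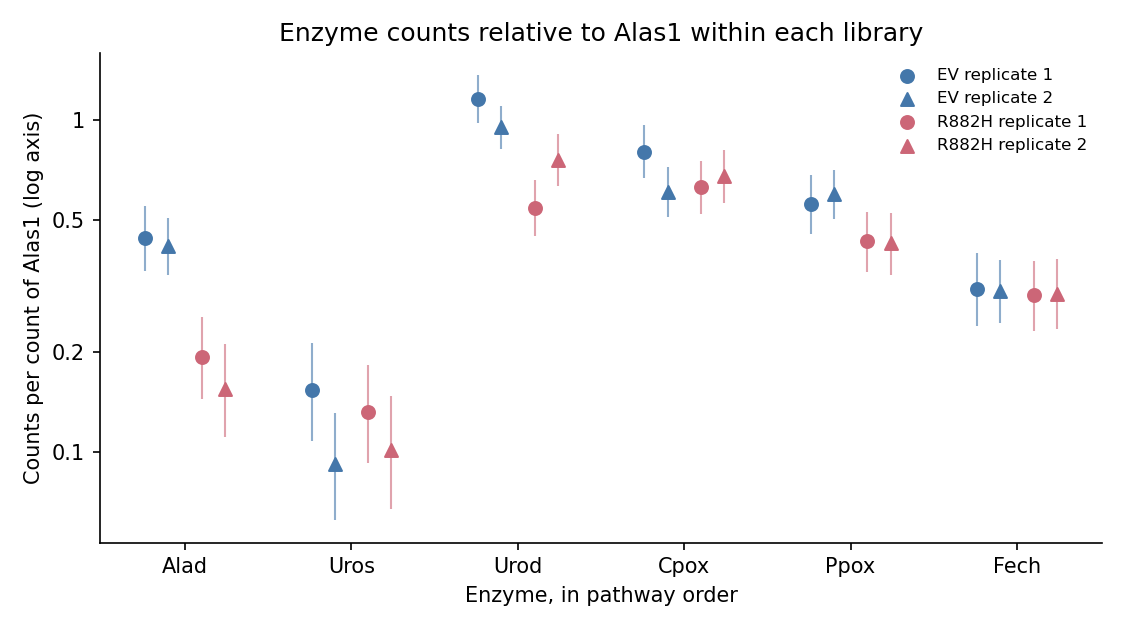
Counts of each enzyme divided by counts of Alas1 in the same library, on a log axis, with exact 95% intervals that cover counting error. Alad, Urod and Ppox lie lower in R882H than in EV relative to Alas1, and Fech stays between 0.297 and 0.311 in the 4 libraries.

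By compartment, the cytosolic enzymes Alad, Uros and Urod summed to 85.8 and 92.7 CPM in EV and 45.2 and 52.8 CPM in R882H. The mitochondrial enzymes Alas1, Cpox, Ppox and Fech summed to 130.9 and 159 CPM in EV and 122 and 125 CPM in R882H. The cytosolic genes gave 39.6% and 36.8% of the counts of the 7 in EV and 27.0% and 29.7% in R882H. The groups do not overlap in this share or in either sum, nor in 14 of 21 ratios between enzymes. These ratios share members, and the 14 include Fech to Alas1, whose differences lay within counting error. Among all tested genes, 33.9% had both R882H libraries under both EV libraries and 35.2% had both above. The count of ratios therefore does not set the enzymes apart. Uros gave 3.47%, 2.31%, 4.10% and 2.96% of the counts and did not itself differ beyond its spread. The cytosolic share therefore rests mostly on Alad and Urod, which were called lower. Summed over the 7, the level was 234 ± 25.0 CPM in EV and 173 ± 7.31 CPM in R882H (SD, n = 2). The most abundant enzyme exceeded the least abundant by 8.77 times in EV and by 8.56 times in R882H.

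Neighbouring genes of the called enzymes were mixed in direction. Next to Alad on chromosome 4, Pole3, a DNA polymerase epsilon subunit 2731 bases away, had a log2 fold change of 0.06 ± 0.14, Rgs3 −0.48 ± 0.26, Prpf4 −0.49 ± 0.16 and Cdc26 0.38 ± 0.14. Of these Prpf4 was called lower and Cdc26 higher, calls that ended in 4 and 3 of 11 alternatives, both in DESeq2 and on leaving out EV replicate 2 or R882H replicate 1, and Prpf4 also without R882H replicate 2. The gene starting 904 bases from Urod, Hectd3, had 0.08 ± 0.23, and Toe1 (0.05 ± 0.18) and Mutyh (−0.04 ± 0.23) were not called either. Eif2b3, which encodes a translation initiation factor subunit 24989 bases from Urod, was called lower (−1.22 ± 0.18). Around Ppox, besides B4galt3, Ufc1 was lower (−0.56 ± 0.14; not called without R882H replicate 2, edgeR adjusted p = 0.0591), and Usp21, 759 bases from the Ppox start, had 0.17 ± 0.18. The nearest tested neighbours that share no exon with the enzyme, Pole3, Hectd3 and Usp21, were not called.

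Profiles over the 4 libraries were compared with that of Alad by Euclidean distance of centred log2 CPM. Candidates came from 8504 genes of at least 10 mean CPM, leaving out those without an established symbol. The nearest were Plec (0.0714), Pitpnm1 (0.0733), Rab6b (0.113), Dock5 (0.118) and Csgalnact1 (0.129). Their log2 fold changes ran from −1.50 for Rab6b to −1.31 for Csgalnact1. The way they were picked sets these values near that of Alad. The distance rests on 4 libraries only, and exons of Plec overlap another gene.

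Around the pathway, supply of substrates and control of ALAS1 moved in both directions. Of 15 tested genes of glycine and succinyl-CoA supply and of related mitochondrial carriers, 1 was higher and 5 were lower, with a median log2 fold change of 0.05. The 5 became 2 when R882H replicate 1 was left out and to 3 when R882H replicate 2 was. Ogdh, of the complex that makes succinyl-CoA, was lower (−0.73 ± 0.13), as were the mitochondrial serine hydroxymethyltransferase Shmt2 (−0.54 ± 0.14) and the carrier Slc25a39 (−0.55 ± 0.13), which imports glutathione, while the succinyl-CoA ligase subunit Suclg2 was higher (0.66 ± 0.13). Shmt2 lost its call without R882H replicate 1 (edgeR adjusted p = 0.105). Of 14 tested genes listed for ALAS1 transcription, ALAS1 protein or mitochondrial transcription, 2 were higher and 1 was lower (median 0.09). The number higher was 1 in DESeq2 and moved on omitting EV replicate 2 or R882H replicate 1. Nr1d2, a heme-binding nuclear receptor, had 25, 39, 140 and 120 counts and was higher (1.95 ± 0.23), and Clpp, the protease that with CLPX degrades ALAS1, was lower (−0.59 ± 0.13). Tfam, the mitochondrial transcription factor, was higher (0.39 ± 0.14), a call that ended in DESeq2 and on leaving out EV replicate 2 (edgeR adjusted p = 0.324) or R882H replicate 1. These are 40.0% and 21.4% called, against 38.8% of all tested genes.

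Iron supply was called in a few members. Of 13 genes of iron delivery, 2 were higher and 1 lower (median 0.08), 23.1% called against 38.8% of all tested genes: ferritin light chain Ftl1 was lower (−1.39 ± 0.13), and Steap3 (1.09 ± 0.17) and the mitochondrial iron importer Slc25a37 (0.39 ± 0.13) were higher, calls that ended in 2 and 4 of 11 alternatives. That of Steap3 ended without either EV library, and that of Slc25a37 without EV replicate 1, without either R882H library and in DESeq2. Ferrochelatase carries an iron-sulphur cluster. Of 18 genes of cluster assembly in the mitochondrion or the cytosol, 2 were higher, Hscb (1.11 ± 0.18) and Fdx1 (0.78 ± 0.22). Nubp2, of the cytosolic part, was lower (−0.70 ± 0.14), which makes 16.7% called (median of the list 0.04). Omitting EV replicate 1 left 0 iron delivery genes higher and 2 lower, and 1 cluster assembly gene higher and 3 lower. Fdx1 lost its call in DESeq2 and on leaving out EV replicate 1 or R882H replicate 1.

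Among genes that use, move or break down heme, some lists held more lower than higher calls, against 19.4% of all tested genes called lower and 38.8% called in all. All 3 tested genes that turn heme into heme a or attach it to cytochrome c were lower: Cox15 (−1.51 ± 0.14), Cox10 (−0.86 ± 0.13) and the holocytochrome c synthase Hccs, with 183, 192, 144 and 136 counts (−0.49 ± 0.17), whose call ended without either R882H library and in DESeq2. Of 5 genes of heme breakdown, 4 were lower (median −0.87), or 2 in DESeq2: the inducible heme oxygenase gene Hmox1, with 29, 39, 6 and 3 counts, the biliverdin reductases Blvra (−0.55 ± 0.16) and Blvrb (−1.16 ± 0.35), and Por (−0.87 ± 0.14), which hands electrons to heme oxygenase. The constitutive heme oxygenase gene Hmox2 was far more abundant, with 899, 910, 997 and 1213 counts, and was not called (0.22 ± 0.14), so most heme oxygenase transcripts were not of the gene called lower; its exons overlap another gene. Blvra lost the call in DESeq2 and on leaving out EV replicate 1 or R882H replicate 1, and Blvrb in DESeq2 and on leaving out EV replicate 2 or R882H replicate 2. Of 10 tested transporters of porphyrin and heme 4 were lower and none higher (median −0.33), 40.0% called, which is near the share of all tested genes: Abcb10, Slc48a1, Slc46a1 and the outer-membrane protein Tspo (−0.65 ± 0.13). Slc46a1 lost its call without EV replicate 1 (edgeR adjusted p = 0.0553) and Slc48a1 without R882H replicate 1 (0.0536). No transporter was higher at an unadjusted p under 0.05 in edgeR, against 5 lower, and none was called higher in DESeq2. The share of all tested genes at that unadjusted threshold is not given here, so no weight is put on these counts. Slc46a1 had few counts: 34, 14, 1 and 5. Of 21 tested genes listed as hemoproteins or their partners, 4 were higher and 8 lower (median −0.04), with 2 higher when EV replicate 2 was left out. The peroxidase gene Mpo was higher, with 166, 198, 7250 and 7237 counts, and Cyc1 (−0.95 ± 0.13), Cyba (−0.88 ± 0.14) and Uqcrc1, a complex III subunit that itself holds no heme (−0.89 ± 0.14), were lower. Exons of Shmt2, Toe1, Ftl1, Cox10, Cox15, Hccs, Tspo, Abcb10 and Slc48a1 overlap those of another gene, so their counts are uncertain. Without genes of overlapping exons, the counts of lower genes were 0 for heme a and cytochrome c attachment and 1 for transporters.

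**Figure D4:**
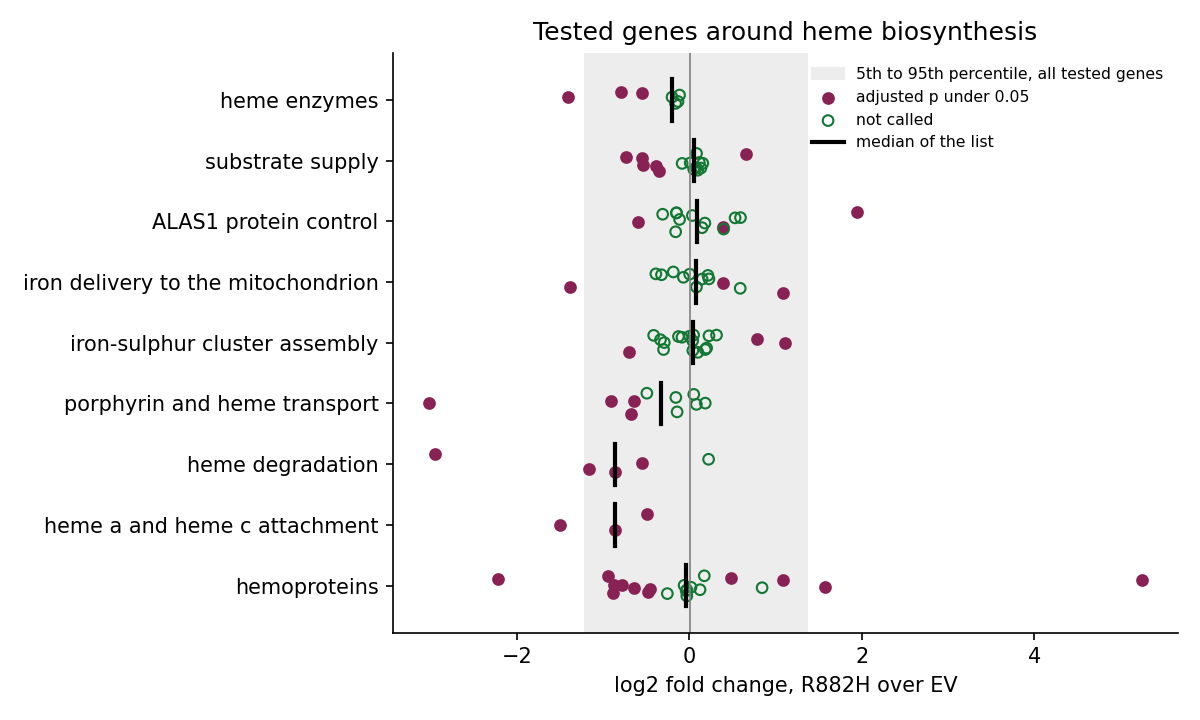
Log2 fold change, R882H over EV, of every tested gene in the heme enzyme list and 8 lists around it; filled points passed the test and bars are list medians, and the grey band spans the 5th to 95th percentile of all tested genes (−1.21 to 1.36). Alad alone of the enzymes falls outside the band.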

How the data were processed

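RNA of 4 libraries was measured with the QuantSeq 3′ protocol, per the labels' protocols. The authors deposited 1 table of raw counts by Ensembl gene. The submitters' processing notes name HISAT2 (2.0.4), Subread (2.0.0) with featureCounts, cutadapt (1.14), bcl2fastq (2.17.1.14), limma (3.48.3) and edgeR (3.34.0), with mm10 as the build. What each did, which annotation was used, whether strand was used and how multiply mapped reads were treated is not given in the sources used here. Symbols and positions (1-based) come from GENCODE M21 and its name table, which matched 52403 of 52636 lines; promoters are RefSeq's.

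Counts were tested with edgeR 4.0.16 in R 4.3.3 over all genes (filterByExpr, TMM factors, glmQLFit with robust estimation, glmQLFTest, Benjamini-Hochberg adjustment, threshold 0.05), after a check on simulated data. Called, higher or lower refers to that threshold. CPM use TMM-scaled library sizes. Standard errors were obtained by dividing the absolute log2 fold change by the root of F, and are too small where a group holds few counts. Intervals use the fit's total degrees of freedom, the residual ones plus prior ones estimated over all tested genes. They therefore borrow information on spread from other genes. Ratio intervals are exact (Clopper-Pearson, 95%). A replicate block, DESeq2 1.42.0 and other alternatives were run. Genes named were all 7 enzymes, from each of 12 lists the called members of smallest p (at most 4, with at most 2 of the other direction), the 3 most counted of marker lists, the 2 tested genes on each side of called enzymes, and the 5 genes most like the enzyme with the smallest p; others named complete a count, give a marker or check a label, and the Y-linked genes and Xist were added after values were seen. Enzymes and lists were chosen with earlier results of these data known. Some genes that this rule or a list would name are not reported here.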

Additional observations from a re-analysis of the deposited data

How the results depend on the processing

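Across 12 alternatives the number of enzymes called lower was 3 or 2 and the number called higher 0. Alad and Urod were called in all 11 refits, and Ppox in 7, with log2 fold changes of −0.77 to −0.30. Leaving out each library in turn gave 2 to 3 enzymes lower, 1446 to 2168 of all genes lower and 1508 to 2065 higher, against 2222 and 2213. DESeq2 called 1416 genes lower and 1300 higher. Deviations of the libraries numbered 1 from their group means had a correlation of −0.00261 over genes. With 2 libraries per group this value cannot show whether replicate numbers pair the samples. In a fit with a replicate block 3 enzymes were called lower, and of all genes 2229 were called lower and 2196 higher. Signs of 10 uncalled genes turned when a library was left out; the cause was not tested. Their log2 fold changes then ran from −0.29 to 0.079 for Alas1, −0.33 to 0.022 for Fech, −0.33 to 0.056 for Uros, −0.18 to 0.38 for Hectd3, −0.46 to 0.055 for Malat1, −0.15 to 0.096 for Mutyh, −0.11 to 0.23 for Pole3, −0.086 to 0.18 for Tal1, −0.12 to 0.23 for Toe1 and −0.014 to 0.36 for Usp21. Of 46 other named genes that were called, 16 lost the call in at least 1 alternative and none changed sign. A left-out library leaves 1 sample in its group, which is assumed to vary like the other group.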

Other observations

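Of 19 tested myeloid progenitor markers, 3 were higher in R882H, 5 lower and 11 not called (median log2 fold change 0.01), beside 38.8% called among all tested genes. The stem cell factor receptor gene Kit had 111, 185, 520 and 388 counts in EV replicates 1 and 2 and then the R882H replicates, and was higher (1.55 ± 0.17). The subunits of the GM-CSF receptor were lower, Csf2ra with 294, 312, 104 and 175 counts (−1.18 ± 0.19) and Csf2rb with 367, 464, 240 and 221 (−0.92 ± 0.14). Among markers of other blood lineages, Ebf1 (0.69 ± 0.13) and Vpreb1 (4.45 ± 0.17), genes of early B cells, were higher, and exons of Vpreb1 overlap another gene.

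Of 8 tested erythroid markers 2 were higher and none lower in edgeR, 25.0% called against 38.8% of all tested genes. At an edgeR unadjusted p under 0.05, 3 were higher and 0 lower, and DESeq2 called 0 in either direction. The unadjusted share over all tested genes is not given here. No marker was called higher without R882H replicate 1, 1 was without either EV library, and 1 was called lower without EV replicate 2. The most counted were Tmod1 (−0.08 ± 0.14), Tal1 (0.04 ± 0.14) and Nfe2 (0.48 ± 0.16), of which Nfe2 was called and lost the call in DESeq2 and on leaving out EV replicate 2 or R882H replicate 1; megakaryocytic and progenitor cells express these genes too. Of 9 tested genes of RNA quality and stress 4 were higher and 1 lower, 55.6% called against 38.8% of all tested genes. Those higher numbered 1 without R882H replicate 1 and 2 without EV replicate 2, and those lower 0 in DESeq2, without EV replicate 2 and without R882H replicate 2, and 2 without EV replicate 1. The most counted of them were mt-Nd1 (−0.12 ± 0.15), mt-Co1 (0.45 ± 0.15) and Malat1 (−0.19 ± 0.15), of which mt-Co1 was called and lost the call without either R882H library; exons of these and of Tmod1 overlap another gene. The part of these differences in the levels of the heme enzymes was not tested.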
